A study of Mus musculus with 23 samples.

Results

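The genes described here are 10 genes of fibroblasts and pancreatic stellate cells, *Pdgfra*, *Thy1*, *Dpt*, *Pi16*, *Vim*, *S100a4*, *Postn*, *Fn1*, *Tnc* and *Hgf*, which were chosen by name as genes of mesenchymal identity and activation, with the genes of matrix fibres left out. All 10 were among the 18512 gene symbols of the count files and all 10 were among the 12195 genes with enough counts to be tested. RNA from the head of the pancreas was sequenced from 23 C57BL/6 mice of 6 to 8 weeks of age. The baseline group held 8 mice without injury (4 females and 4 males). Acute pancreatitis was induced in the other mice with intraperitoneal caerulein at 50 µg/kg, as 8 injections a day on 2 days in a row, and tissue was taken from 8 mice at day 7 (4 females and 4 males) and from 7 mice at day 14 (3 females and 4 males). Caerulein is an analogue of cholecystokinin that overstimulates acinar cells. The comparisons asked which of these genes still differed from the uninjured pancreas 1 and 2 weeks after injury. No genotype or transgene was part of the design. The labels name only the pancreas as the tissue, and whole tissue was used, so that fewer cells of a type and less RNA per cell cannot be told apart in any value given here.

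Fibroblasts and stellate cells are the connective tissue cells between the acini and around the ducts and vessels of the pancreas. A stellate cell at rest stores retinoids, and after injury it can divide, lose these stores and take on the features of a myofibroblast that secretes matrix. Platelet-derived growth factor is a mitogen for these cells and acts through the receptors encoded by *Pdgfra* and *Pdgfrb*. Fibronectin, periostin and tenascin C are matrix glycoproteins that bind integrins, and hepatocyte growth factor is a signal from mesenchymal cells to epithelial cells that carry the receptor Met.

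The libraries held 7059890 to 9567446 counts. The 20 most abundant genes took 69.4% ± 1.48 of the counts at baseline, 60.3% ± 2.43 at day 7 and 65.0% ± 0.869 at day 14 (mean ± SD), and the share differed between each pair of time points (exact two-sided permutation tests, adjusted p = 0.000559 for each). Levels are therefore given in CPM, the counts of a gene relative to the TMM-scaled total of its library, a scaling that assumes no change in most genes. Scaling by the total count instead raised the median of all genes by 0.47 on the log2 scale at day 7 and by 0.22 at day 14. Mouse 5 at baseline, mice 10 and 15 at day 7 and mouse 21 at day 14 had a mean log2 CPM of lymphocyte markers between 3.30 and 4.02, while the other 19 mice lay between -2.12 and 1.78. The adipocyte marker mean of these 4 mice was 2.83 to 4.22, against -1.63 to 3.03 in the others. Their pericyte and smooth muscle marker mean was 2.78 to 2.99, with no overlap with the 1.297 to 2.765 of the others, and their macrophage marker mean was 3.54 to 4.25, against 2.15 to 4.01. These 4 mice are called the lymphocyte-rich mice below. The retinoid enzyme gene *Lrat* had no count in 15 of the 23 mice, and *Gfap*, a marker of stellate cells at rest, never had more than 1 count, so that stellate cells could not be told from other mesenchymal cells with these markers.

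To place the genes in the genome, promoter windows of 300 bases (250 before to 50 after a RefSeq start site, build GRCm38.p6) were read for the 8 genes that the RefSeq table held. *Thy1* and *Fn1* were not matched. The windows of the 4 genes below are printed because *Pdgfra* and *Dpt* were the genes called at both recovery days, *Postn* had the largest day 7 fold change of the edgeR fit, and *S100a4* had the TATA box letters near its start; capitals mark TATAAA. The windows lie at chr5:75152001-75152300 for *Pdgfra*, chr1:164796413-164796712 for *Dpt*, chr3:54360857-54361156 for *Postn* and chr3:90603520-90603819 for *S100a4*, all on the plus strand.
Pdgfra: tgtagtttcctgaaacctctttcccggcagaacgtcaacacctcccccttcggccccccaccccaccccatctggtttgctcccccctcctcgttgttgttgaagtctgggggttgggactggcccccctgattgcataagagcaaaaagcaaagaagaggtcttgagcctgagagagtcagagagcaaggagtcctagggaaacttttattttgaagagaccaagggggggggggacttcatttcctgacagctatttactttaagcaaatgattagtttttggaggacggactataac
Dpt: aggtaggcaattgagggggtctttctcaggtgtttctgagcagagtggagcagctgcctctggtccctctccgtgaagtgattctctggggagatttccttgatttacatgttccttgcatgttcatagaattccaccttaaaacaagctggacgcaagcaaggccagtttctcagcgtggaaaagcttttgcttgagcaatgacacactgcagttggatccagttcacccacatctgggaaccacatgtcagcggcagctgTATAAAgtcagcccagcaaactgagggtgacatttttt
Postn: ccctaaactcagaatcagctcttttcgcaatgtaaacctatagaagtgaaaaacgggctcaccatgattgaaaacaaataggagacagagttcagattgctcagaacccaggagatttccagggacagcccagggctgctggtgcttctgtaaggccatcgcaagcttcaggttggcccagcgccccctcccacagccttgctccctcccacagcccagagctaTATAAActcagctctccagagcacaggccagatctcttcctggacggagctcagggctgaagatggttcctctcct
S100a4: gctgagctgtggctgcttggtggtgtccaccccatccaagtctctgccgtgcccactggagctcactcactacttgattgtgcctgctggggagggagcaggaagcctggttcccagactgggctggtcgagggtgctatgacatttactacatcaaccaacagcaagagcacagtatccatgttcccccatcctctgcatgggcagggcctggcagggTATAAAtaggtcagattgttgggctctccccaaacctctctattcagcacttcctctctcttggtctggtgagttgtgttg
TATAAA on either strand was found in 5 of the 8 windows (*Dpt*, *Postn*, *S100a4*, *Tnc* and *Vim*) and in 13.6% of all 32851 windows of the table. It began 26 bases before the start site in *Postn*, 31 bases before it in *S100a4* and 32 bases before it in *Vim*, and on the 13th base after it in *Dpt*. The AP-1 letters TGANTCA (7.81% of all windows) and the TEAD letters GGAATG (14.7%) were in none of the 8 windows, nor was a CArG box (1.63%). The GC box letters GGGCGG (35.7%) were in the window of *Tnc* alone. No pair of these motifs overlapped in the 8 windows.

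Per kb of exon, *Dpt* was the most abundant of the 10 genes at every time point and *Hgf* the least abundant. At baseline the mean level was 13.1 CPM per kb ± 3.83 for *Dpt*, 5.55 ± 1.61 for *Vim*, 4.86 ± 2.36 for *Fn1* and 1.80 ± 0.278 for *Pdgfra* (SD, n = 8). The ranges of *Dpt* and *Vim* did not overlap at baseline, and neither did those of *Fn1* and *Pdgfra*, while *Vim* and *Fn1* overlapped. *S100a4*, *Pi16*, *Thy1* and *Postn* followed with means between 0.828 and 1.02 CPM per kb and overlapping ranges. *Tnc* and *Hgf* were lowest, at 0.214 ± 0.458 and 0.0665 ± 0.0317 CPM per kb. At day 7 the order was the same down to *S100a4*, and *Postn* stood above *Pi16* and *Thy1*, with a mean of 2.78 CPM per kb ± 1.06, although the ranges of these 3 genes overlapped.

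At day 7, 7 of the 10 genes had risen, and all 10 had a positive log2 fold change. Of these, *S100a4* and *Hgf* had at most 8 and 7 counts in a baseline mouse. They passed the count filter only through the recovery mice, so their calls and folds depend on their being high there. In the fit of only the mice compared, neither could be tested at day 7. In that fit 5 of the 7 genes tested were called, as were 520 of all 11606 genes. *Postn*, *S100a4* and *Hgf* had the largest estimated rises, at 3.29, 2.90 and 2.57 times baseline, followed by *Dpt* at 2.05, *Pdgfra* at 1.83, *Vim* at 1.70 and *Pi16* at 1.69 times. This order rested on the estimate of fold change. With the DESeq2 prior, which pulls imprecise values towards 0, *Dpt* came first at 1.84 times, before *Postn* at 1.77, *Pdgfra* at 1.74, *Hgf* at 1.56 and *S100a4* at 1.55 times. A gene was called when it passed an adjusted p of 0.05 and changed by 1.5-fold or more. By this rule 5.13% of all genes tested were called at day 7 and 3.82% were called higher. The median log2 fold change of the 10 genes stood at 0.95, that of all genes tested at 0.02. In 3 of the 10 genes, *Pdgfra*, *Dpt* and *Hgf*, every day 7 mouse lay above every baseline mouse, as in 1.16% of all genes tested. For *Hgf* this separation has the same limit from the count filter.

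**Figure D1:**
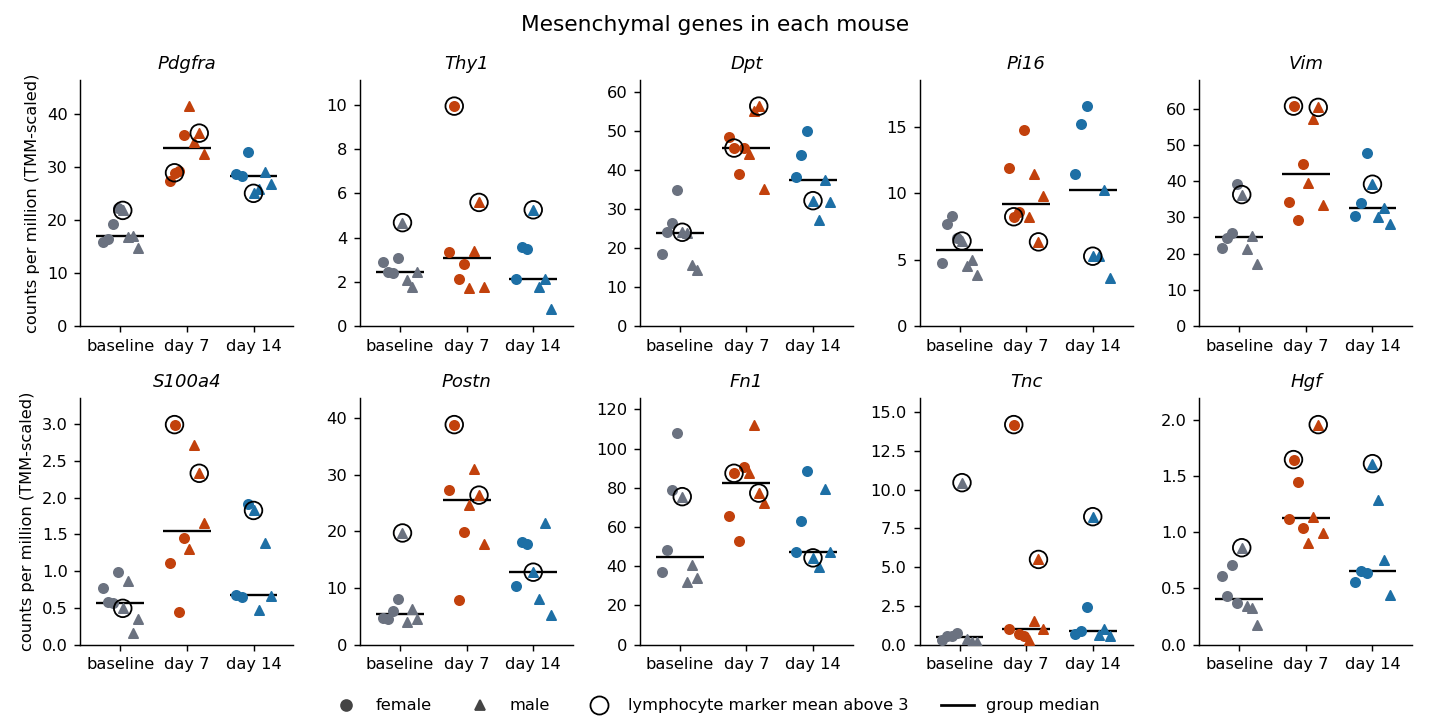
Level of each of the 10 genes in each of the 23 mice, in TMM-scaled CPM on linear axes from 0, by time point, with circles for females, triangles for males, bars at the group medians and rings around the 4 mice with a lymphocyte marker mean above 3. Every day 7 mouse lies above every baseline mouse for *Pdgfra*, *Dpt* and *Hgf*, and the 4 ringed mice hold the 4 highest levels of *Tnc* and of *Thy1*.

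*Pdgfra*, which encodes the alpha receptor of platelet-derived growth factor and marks fibroblasts in most tissues, had the smallest adjusted p of the 10 genes. It lies at chr5:75152292-75198215 (GRCm38, plus strand). In the 3 groups the lowest, median and highest levels were 14.8, 16.9 and 22.3 CPM at baseline, 27.3, 33.5 and 41.4 at day 7 and 25.0, 28.4 and 32.7 at day 14. Both recovery groups lay wholly above the baseline group, and they overlapped each other. For *Pdgfra* the log2 fold change was 0.88 at day 7 (SE 0.09, adjusted p = 3.05e-07) and 0.63 at day 14 (SE 0.10, adjusted p = 0.00044). Among the 10 genes it also varied least between mice, with a within-group SD of 0.19 on the log2 scale, below the median of 0.22 over all genes tested.

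*Dpt*, the gene of dermatopontin, a small matrix protein that binds decorin and marks fibroblasts of many organs, followed a like course. Levels (lowest, median and highest mouse) were 14.3, 23.9 and 34.9 CPM at baseline, 35.1, 45.6 and 56.3 at day 7 and 27.0, 37.5 and 50.0 at day 14. The gap between the highest baseline mouse and the lowest day 7 mouse was narrow, and 4 of the 7 day 14 mice lay above every baseline mouse. On the log2 scale the fold change was 1.03 at day 7 (SE 0.15, adjusted p = 5.15e-05) and 0.72 at day 14 (SE 0.15, adjusted p = 0.0153). Without mouse 19 at day 14, *Dpt* was not called at that day (adjusted p = 0.0558), and *Pdgfra* fell below the fold threshold (log2 fold change 0.58).

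*Pi16*, a peptidase inhibitor gene that marks fibroblasts of the adventitia around vessels, rose at day 7. Between the lowest, median and highest mouse, levels were 3.82, 5.70 and 8.30 CPM at baseline, 6.34, 9.17 and 14.7 at day 7 and 3.64, 10.3 and 16.6 at day 14. Of the 8 day 7 mice, 5 lay above every baseline mouse, and the day 14 group spanned the whole range of the other groups. *Pi16* had a log2 fold change of 0.76 at day 7 (SE 0.22, adjusted p = 0.0178) and 0.69 at day 14 (SE 0.23, adjusted p = 0.146). *Pi16* was not called at day 7 without sex in the fit (log2 fold change 0.73, adjusted p = 0.0698) or with the DESeq2 prior, where its rise was 1.44-fold. With total count scaling it was also called at day 14 (1.85-fold, adjusted p = 0.00772).

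*Thy1* encodes a surface glycoprotein of fibroblasts that T cells and neurons also carry, and it was not called at either day with TMM scaling. Its lowest, median and highest levels were 1.77, 2.45 and 4.68 CPM at baseline, 1.70, 3.07 and 9.95 at day 7 and 0.772, 2.13 and 5.26 at day 14. The highest mouse of each group was a lymphocyte-rich mouse, and the second such mouse at day 7 (5.59 CPM) was the next highest of that group. The log2 fold change was 0.48 at day 7 (95% interval -0.29 to 1.24, adjusted p = 0.391), and 0.09 without the 4 lymphocyte-rich mice. With total count scaling the day 7 value was 0.97 and the gene was called (adjusted p = 0.0376).

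*Vim* encodes vimentin, the intermediate filament of mesenchymal cells, which leukocytes and endothelial cells also contain. As lowest, median and highest level, *Vim* had 17.04, 24.7 and 39.2 CPM at baseline, 29.3, 42.1 and 60.7 at day 7 and 28.2, 32.5 and 47.8 at day 14. The groups overlapped, and 5 of the 8 day 7 mice lay above every baseline mouse. *Vim* rose at day 7 with a log2 fold change of 0.77 (SE 0.19, adjusted p = 0.0071), and at day 14 the value was 0.39 (adjusted p = 0.416).

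*S100a4*, a calcium-binding protein gene also known as fibroblast-specific protein and also expressed by macrophages and other leukocytes, rested on few counts, 1 to 8 at baseline and 4 to 40 at day 7. In CPM its lowest, median and highest levels were 0.161, 0.571 and 0.986 at baseline, 0.445, 1.55 and 2.99 at day 7 and 0.468, 0.672 and 1.91 at day 14. All but 1 of the 8 day 7 mice lay above every baseline mouse. For *S100a4* the log2 fold change was 1.54 at day 7 (SE 0.38, adjusted p = 0.00489) and 0.83 at day 14 (adjusted p = 0.383). In the GENCODE annotation 302 exon bases of *S100a4* are shared with the gene Gm42674 on the same strand, a symbol that was not in the files.

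Macrophage markers rose with these genes at day 7. Of 10 markers tested, 7 were called higher and none lower, the list median being 0.87 on the log2 scale, and 4 of them were *C1qa* (1.05), *Mrc1* (0.73), *C1qc* (1.05) and *Adgre1* (0.89). The marker mean spanned 2.15 to 3.82 log2 CPM in the baseline mice, 3.00 to 4.25 in the day 7 mice and 2.58 to 3.54 in the day 14 mice. With this mean as a covariate, 2 of the 10 genes were called at day 7 instead of 7. *Pdgfra* kept a log2 fold change of 0.69 (adjusted p = 3.04e-05) and *Dpt* of 0.70 (adjusted p = 0.00219). *Postn* had 0.92 (adjusted p = 0.0652), *Hgf* 0.95 (adjusted p = 0.0878), *Pi16* 0.61 (adjusted p = 0.156), *S100a4* 0.63 (adjusted p = 0.277) and *Vim* 0.15 (adjusted p = 0.247). The marker mean itself differed between the time points, so that the covariate also takes up part of the time effect.

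**Figure D2:**
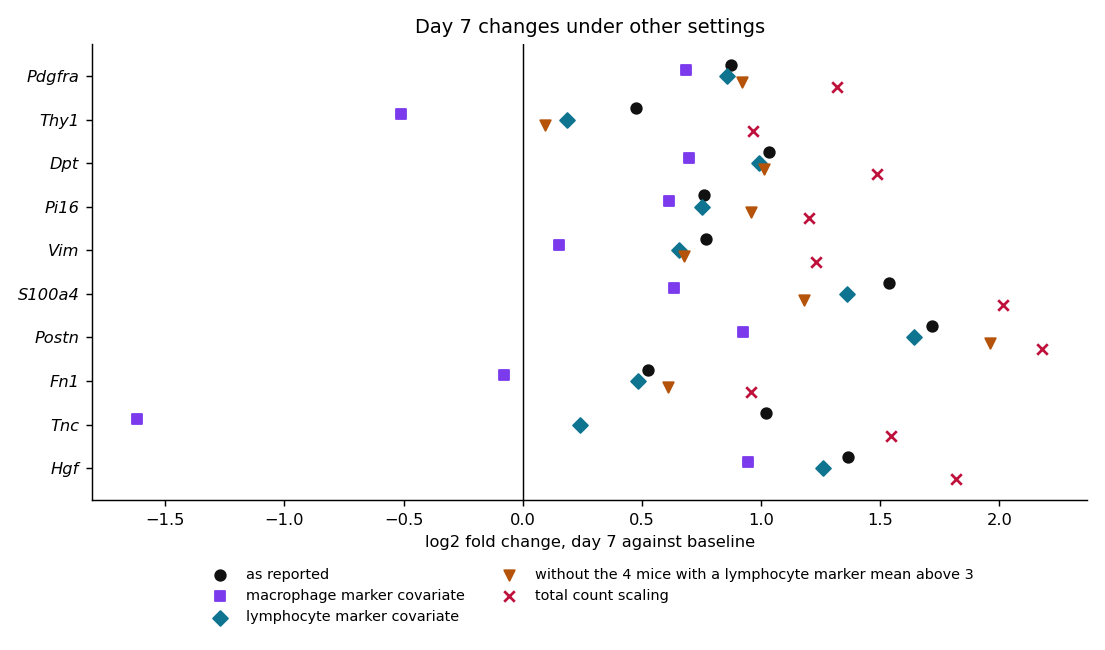
Log2 fold change at day 7 against baseline of each of the 10 genes as reported, with the macrophage or the lymphocyte marker mean as a covariate, without the 4 lymphocyte-rich mice, and with total count scaling. *Pdgfra* and *Dpt* stay between 0.69 and 1.49 in these settings, while *Thy1*, *Fn1* and *Tnc* fall below 0 with the macrophage marker covariate; *Hgf* and *Tnc* have no value without the 4 mice, because they had too few counts to be tested.

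*Postn* encodes periostin, a matricellular protein secreted by activated fibroblasts. Its lowest, median and highest levels were 3.99, 5.33 and 19.7 CPM at baseline, 7.90, 25.5 and 38.8 at day 7 and 5.18, 12.8 and 21.4 at day 14. The baseline value of 19.7 CPM belonged to mouse 5, a lymphocyte-rich mouse, and the next baseline mouse had 8.01 CPM. The log2 fold change was 1.72 at day 7 (SE 0.37, adjusted p = 0.00304) and 0.85 at day 14 (SE 0.40, adjusted p = 0.361). Without the 4 lymphocyte-rich mice it was 1.96 at day 7 (adjusted p = 0.00234) and 1.28 at day 14 (adjusted p = 0.11).

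*Fn1*, the gene of fibronectin, had the highest CPM of the 10 genes but was not called with TMM scaling. For *Fn1* the lowest, median and highest levels were 31.7, 44.6 and 108.0 CPM at baseline, 52.8, 82.3 and 112.2 at day 7 and 39.8, 47.3 and 88.3 at day 14. The baseline value of 108.0 came from mouse 4, and only 1 day 7 mouse lay above it. The log2 fold change was 0.52 at day 7 (SE 0.25, adjusted p = 0.155) and 0.05 at day 14 (adjusted p = 0.969), and without mouse 4 the day 7 value was 0.70 and the gene was called (adjusted p = 0.0449). It was also called at day 7 with total count scaling, at 0.96 (adjusted p = 0.00562). *Apol7d*, which is in the files, shares 292 exon bases with *Fn1* on the other strand. The kit kept the strand, but the strand setting of the counting is not given in the sources used here.

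*Tnc*, the gene of tenascin C, a matricellular protein that is scarce in adult tissue and made during repair, was high in the 4 lymphocyte-rich mice and low in the rest. These 4 mice had 10.5 CPM (mouse 5, baseline), 14.2 and 5.50 CPM (mice 10 and 15, day 7) and 8.26 CPM (mouse 21, day 14). The other 19 mice had 0.161 to 2.44 CPM, and the highest of them was mouse 19 at day 14, which also had the next highest lymphocyte marker mean (1.78). The medians were 0.455 CPM at baseline, 1.0 at day 7 and 0.869 at day 14. The log2 fold change was 1.02 at day 7 with a 95% interval from -1.05 to 3.09 (adjusted p = 0.505), so that neither a rise nor a fall was detectable. At day 14 it was 0.24, and it was -0.78 without mouse 21. *Tnc* was not tested without the 4 mice, since it then had too few counts.

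**Figure D3:**
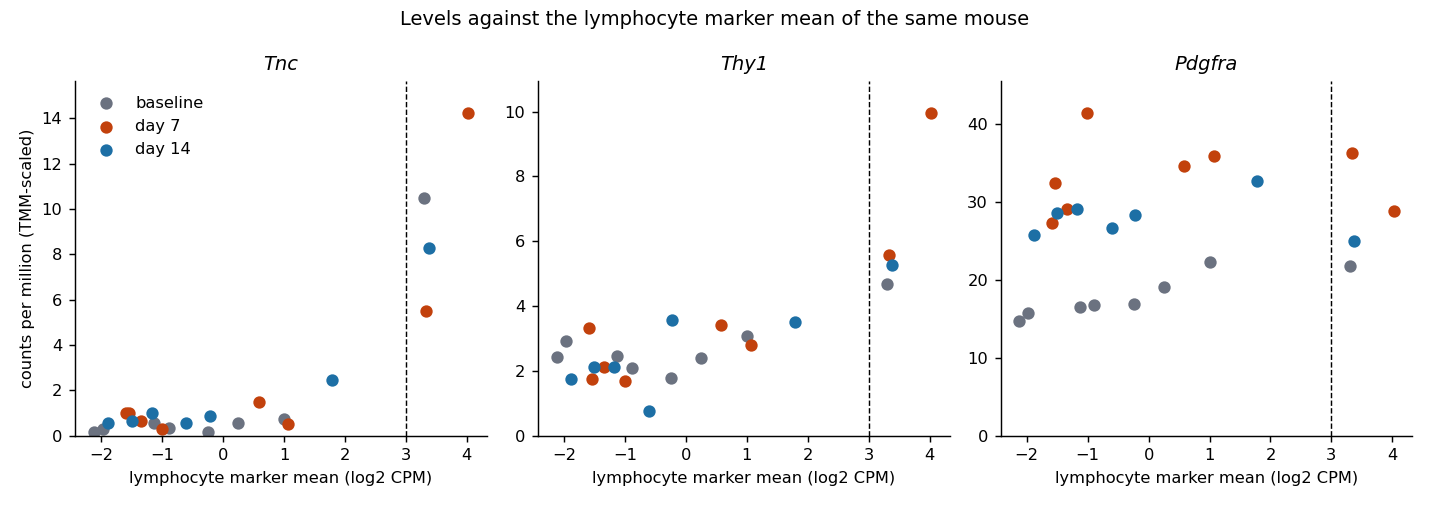
Level of *Tnc*, *Thy1* and *Pdgfra* in TMM-scaled CPM against the mean log2 CPM of the lymphocyte markers in the same mouse, coloured by time point, with a dashed line at 3. The 4 mice right of the line have 5.50 to 14.2 CPM of *Tnc* and 4.68 to 9.95 CPM of *Thy1*, above all other mice, while their *Pdgfra* levels of 21.8 to 36.4 CPM lie within the range of the others.

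The 4 lymphocyte-rich mice also stood high for *Postn* (12.8 to 38.8 CPM, against 3.99 to 31.0 in the others) and *Hgf* (0.862 to 1.96 CPM, against 0.174 to 1.45), but these ranges overlapped. Their *Pi16* levels of 5.26 to 8.23 CPM lay within those of the other mice, at 3.64 to 16.6 CPM. Without them 6 of the 8 genes that could still be tested were called at day 7, namely *Dpt*, *Pi16*, *Vim*, *Postn*, *S100a4* and *Pdgfra*. Of all 11960 genes tested without these mice, 555 were called. The part of lymphoid, fat or smooth muscle tissue in the values of these mice was not tested.

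*Hgf*, the gene of hepatocyte growth factor, was the only secreted growth factor among the 10 genes. It had 1 to 7 counts at baseline and 9 to 22 at day 7. Its lowest, median and highest levels were 0.174, 0.402 and 0.862 CPM at baseline, 0.901, 1.13 and 1.96 at day 7 and 0.441, 0.652 and 1.61 at day 14. Every day 7 mouse lay above every baseline mouse, and 5 of the 7 day 14 mice lay below every day 7 mouse. Without the lymphocyte-rich mice *Hgf* had too few counts to be tested. *Hgf* had a log2 fold change of 1.36 at day 7 (SE 0.31, adjusted p = 0.00305) and 0.75 at day 14 (adjusted p = 0.331). Of 8 genes of its receptor, its activators and inhibitors and the adaptor of Met, *Plau*, the gene of urokinase, which can activate pro-HGF, was the 1 gene called. It was higher at day 7 (log2 fold change 0.80, adjusted p = 2.65e-05) and at day 14 (0.72, adjusted p = 0.00104). *Spint1*, the gene of an inhibitor of HGF activation, was lower at day 7 by adjusted p (0.000747) but under the fold threshold (log2 fold change -0.35), with 7 of 8 mice below every baseline mouse. *Met*, the receptor gene, had a log2 fold change of 0.11 (adjusted p = 0.426) at day 7.

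At day 14, *Pdgfra* and *Dpt* were called and the other 8 genes were not. All 10 log2 fold changes against baseline were positive, from 0.01 for *Thy1* to 0.85 for *Postn*, with a median of 0.66 against 0.01 over all genes tested. Of all genes tested, 0.787% were called at day 14 and 0.697% were called higher. *Pdgfra* was the 1 gene of the 10 in which every day 14 mouse lay above every baseline mouse, as in 0.435% of all genes tested.

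In the direct comparison of day 14 with day 7, none of the 10 genes was called by edgeR, while 0.377% of all genes tested were. DESeq2, which called 36 genes, called none of the 10 either. It gave no adjusted p for *Thy1*, *S100a4*, *Hgf* and *Tnc*, so it could not call them. All 10 log2 fold changes were negative, with a median of -0.47 against -0.01 over all genes tested. Of the 10 genes, 4 had an unadjusted p under 0.05, as had 1721 of all 12195 genes tested. The values were -0.87 for *Postn* (95% interval -1.61 to -0.13, adjusted p = 0.262), -0.61 for *Hgf* (95% interval -1.21 to -0.01, adjusted p = 0.339), -0.31 for *Dpt* (95% interval -0.61 to -0.01, adjusted p = 0.323) and -0.25 for *Pdgfra* (95% interval -0.43 to -0.06, adjusted p = 0.194). A fall between the days was thus not detectable for these genes after adjustment. The 3 comparisons share their mice, so their signs are not independent of each other. With total count scaling, under which the median of all genes fell by 0.25, *Vim*, *Postn*, *S100a4* and *Hgf* were called lower at day 14 than at day 7.

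**Figure D4:**
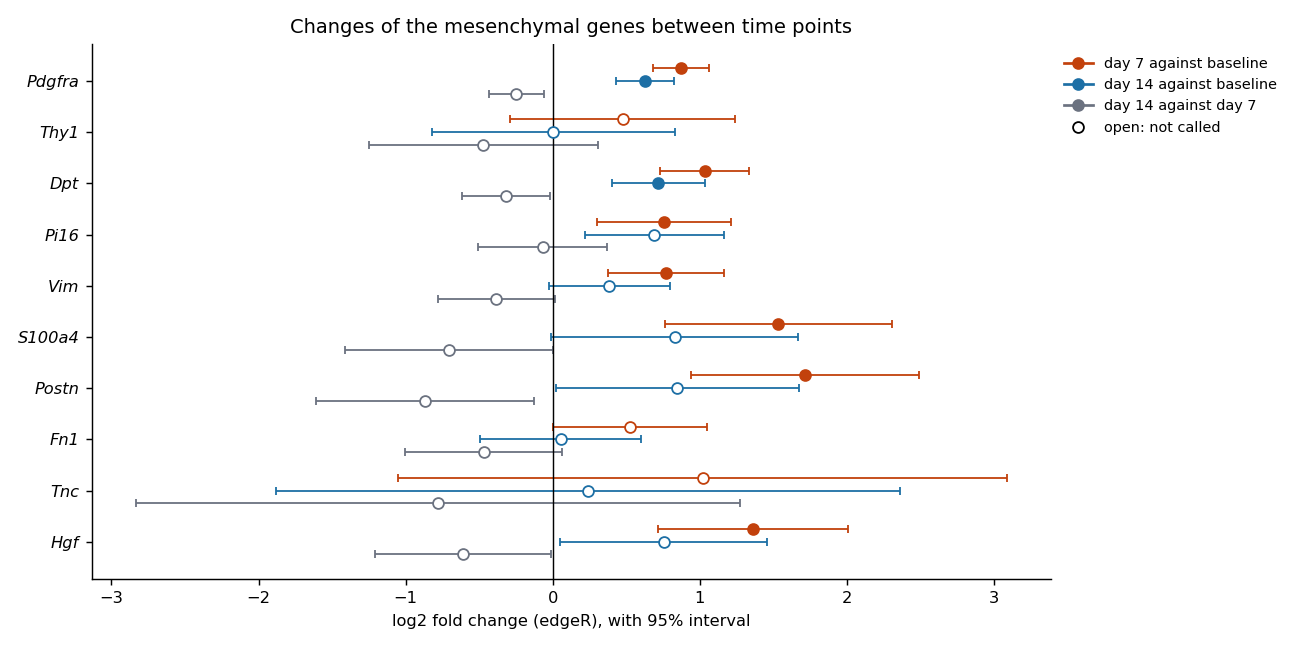
Log2 fold change of each of the 10 genes in the 3 comparisons of time points, with 95% intervals from edgeR and filled points for the genes called. The day 7 points of 7 genes are filled, those of *Pdgfra* and *Dpt* are also filled at day 14, and no point of day 14 against day 7 is filled.

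Counts relative to *Pdgfra* in the same mouse do not depend on the library scaling. For *Postn* the median was 0.307 counts per *Pdgfra* count at baseline, 0.66 at day 7 and 0.511 at day 14, and for *Hgf* it was 0.0235, 0.0368 and 0.023. For *Dpt* the medians were 1.27, 1.44 and 1.29, and for *Pi16* 0.297, 0.298 and 0.353. *Vim* had medians of 1.42, 1.25 and 1.16 and *Fn1* of 2.67, 2.31 and 1.77. The median of *Postn* per *Pdgfra* count was thus higher at both recovery days than at baseline, and that of *Fn1* was lower at both, while the ranges of each gene overlapped between time points. These ratios are a description and were not tested.

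Other genes of the same pathways and cells were taken from lists chosen by name. Of 5 further genes of platelet-derived growth factor signalling, the ligand gene *Pdgfc* rose at day 7 (log2 fold change 0.93, SE 0.22, adjusted p = 0.00331), and none was called lower. *Pdgfrb*, the other receptor gene, had a log2 fold change of 0.05 (adjusted p = 0.799). None of 9 genes of receptors for fibronectin, periostin and tenascin C was called by edgeR at either day. At day 7, 2 of 9 had an unadjusted p under 0.05, as had 3925 of all 12195 genes tested. The day 7 median of the 9 genes was 0.18 and the largest value, 0.99, was that of *Itga8* (adjusted p = 0.275). None of the 5 tested genes of stellate cells at rest was called either. At day 7 their median was 0.69, and 2 of 5 had an unadjusted p under 0.05.

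Of 12 tested genes of myofibroblast activation, *Lox*, which encodes lysyl oxidase, an enzyme that cross-links collagen, rose at day 7 (log2 fold change 1.06, SE 0.19, adjusted p = 0.000312), and none was called at day 14. *Acta2*, the gene of smooth muscle actin and the usual myofibroblast marker, had a log2 fold change of 1.16 with an SE of 0.65 (adjusted p = 0.231) and is given here as the list's defining gene. Of 12 tested genes of fibroblast identity, 3 rose at day 7 and none fell. *Sfrp1*, which encodes a secreted inhibitor of Wnt signalling, had a log2 fold change of 1.61 at day 7 (adjusted p = 2.67e-06) and 1.29 at day 14 (adjusted p = 0.000696). *Mfap5*, a gene of microfibrils, had 1.17 at day 7 (adjusted p = 0.00135), and *Pcolce*, which enhances procollagen processing, had 0.59 (adjusted p = 0.0022). Every day 7 mouse lay above every baseline mouse for *Sfrp1* and *Mfap5*.

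**Figure D5:**
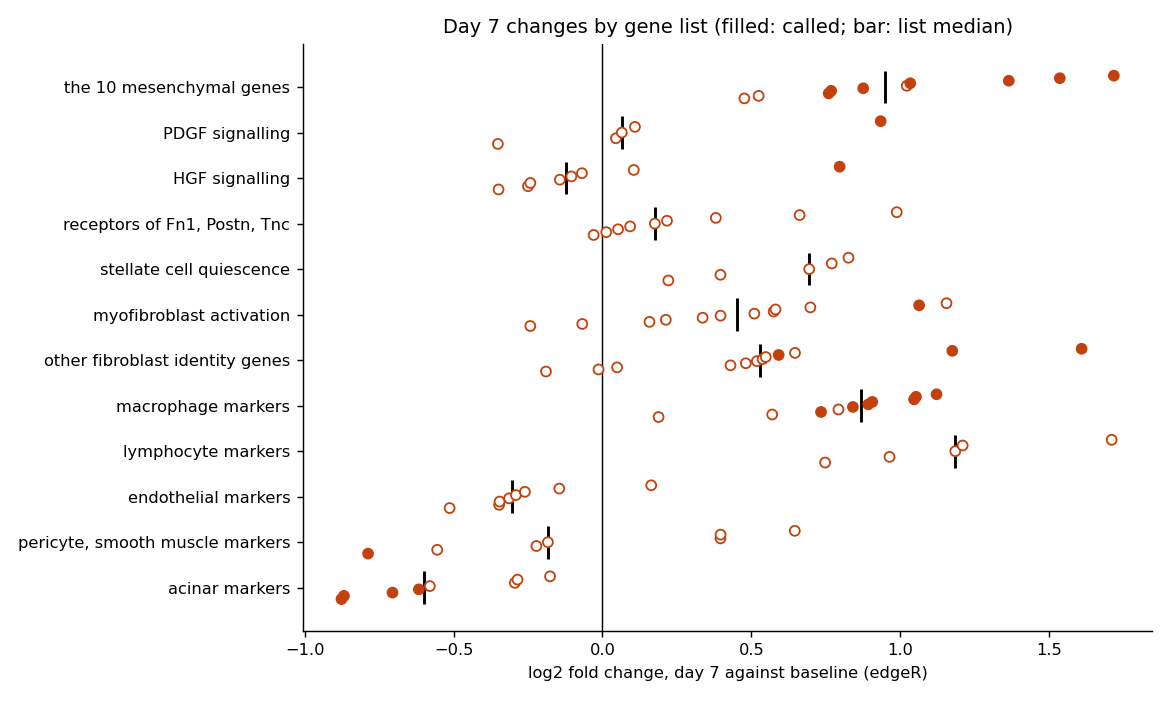
Log2 fold change at day 7 against baseline of the tested genes of each list, one point a gene, filled where called, with a bar at the list median. The 10 mesenchymal genes have a median of 0.95 and the macrophage markers of 0.87, while the acinar markers have a median of -0.60 and lie wholly below 0.

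Markers of other cells did not all move this way. None of 8 endothelial markers was called at day 7 in edgeR (median -0.30). Of these 8, 4 had an unadjusted p under 0.05, as had 3925 of all 12195 genes tested. Of 7 pericyte and smooth muscle markers, *Notch3* fell at day 7 (log2 fold change -0.79, adjusted p = 0.0141), with a list median of -0.18. Of 8 acinar markers, *Pnlip* (-0.88), *Cpa1* (-0.87), *Ctrb1* (-0.70) and *Cela1* (-0.62) fell and none rose, with a median of -0.60. Of 7 ductal markers, *Spp1* (0.72) and *Krt7* (0.74) rose and none was called lower. The list did not move as a whole, with 4 of 7 values positive, a lowest value of -0.37 and a median of 0.09. None of the 5 tested lymphocyte markers (median 1.18), 6 mesothelial markers (-0.06), 5 tested adipocyte markers (0.66) or 2 tested Schwann cell markers (0.26) was called at day 7, and at day 14 no marker of the 9 lists of other cells passed both thresholds. At that day 4 of the 8 acinar markers had an adjusted p under 0.05 with log2 fold changes between -0.40 and -0.31. All 6 mesothelial markers were negative at day 14 (median -0.73). Of these 6, 4 had an unadjusted p under 0.05, as had 1619 of all 12195 genes tested. The part of these cells in the changes of the 10 genes was not tested beyond the covariate fits given above.

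The sexes were compared for the same genes. None of the 10 was called between males and females over all time points, against 0.23% of all genes tested. Of the 10, 1 gene, *Pi16*, had an unadjusted p under 0.05, as had 1097 of all 12195 genes tested. *Pi16* had 11.4 to 16.6 CPM in the 3 females and 3.64 to 10.3 CPM in the 4 males at day 14. These ranges did not overlap, but the share of all genes that separate so few mice in this way was not computed. At baseline it had 4.75 to 8.30 CPM in females and 3.82 to 6.40 CPM in males, and at day 7 8.23 to 14.7 and 6.34 to 11.5 CPM, with overlap. The log2 difference of males from females was -0.64 over all time points (SE 0.18, adjusted p = 0.142 in edgeR) and -1.25 at day 14 (SE 0.28, adjusted p = 0.104).

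The response itself did not differ between the sexes past the threshold for any of the 10 genes. The test of the difference in response gave no unadjusted p under 0.05 among them at either day, against 683 of all genes at day 7 and 460 at day 14, and after adjustment 0.0082% of all genes passed at day 7 and 0% at day 14. DESeq2 gave 19 such genes at day 7 and 0 at day 14 over all genes. Within each sex, *Pdgfra* had adjusted p-values at day 7 of 0.000914 in females and 7.09e-06 in males, with log2 fold changes of 0.71 and 1.03. For *Dpt* these were 0.018 in females and 0.000218 in males, with log2 fold changes of 0.78 and 1.29. *Postn* passed an adjusted p of 0.05 in females alone (0.038, against 0.0894 in males). *Vim* (0.0425), *S100a4* (0.0197) and *Hgf* (0.0449) passed it in males alone, and *Pi16* passed it in neither sex. Over all genes tested, 638 passed an adjusted p of 0.05 at day 7 in females and 1109 in males. Passing in males alone was therefore not particular to these genes.

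The genes differed in how far they varied between mice of a group. The within-group SD of log2 CPM was 1.48 for *Tnc*, 0.71 for *Postn*, 0.69 for *Thy1* and 0.65 for *S100a4*, 0.33 for *Dpt* and 0.19 for *Pdgfra*. The SD of *Tnc* was larger than that of 99.4% of all genes tested. Among the 19 mice that were not lymphocyte-rich, the deviations from the time point means went together for *Vim* and *Fn1* (Pearson's r = 0.86, Spearman's rho = 0.83) and for *Pdgfra* and *Fn1* (r = 0.81, rho = 0.82). *Thy1* and *Pi16* had r = 0.79 (rho = 0.70) in these 19 mice and r = 0.22 (rho = 0.16) over all 23. All these values share the scaling of each library and are given without a test.

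The genes most like each of the 10, by Pearson's r over the 23 mice of log2 CPM with the time point mean removed, were taken as the first 3 of all genes tested. For *Pdgfra* they were *Scara5* (r = 0.84), *Aebp1* (0.81) and *Abcb1b* (0.79), and for *Dpt* they were *Aebp1* (0.88), *C1s1* (0.86) and *Dcn* (0.85). *Postn* was most like *Csf1r* (0.80), *Il33* (0.80) and *Col14a1* (0.80), and *Vim* was most like *B2m* (0.92), *Serping1* (0.91) and *Lyz2* (0.91). *Aebp1* was shared by *Pdgfra* and *Dpt*, and *Csf1r* and *Lyz2* are macrophage markers of the list above. For *Fn1* they were *Zcchc24* (0.88), *Tnxb* (0.87) and *Gabra3* (0.86), and for *Pi16* *Plxdc2* (0.79), *Dcbld2* (0.75) and *Fndc1* (0.75). The leading genes of *Tnc* were *Psap* (0.95), *Ets1* (0.95) and *Dock10* (0.95), and of *Thy1* *Arhgap15* (0.88), *Itpr1* (0.87) and *Ipcef1* (0.87), values to which the 4 lymphocyte-rich mice contribute. For the sparsely counted *S100a4* (*Gm13157*, *Sspn* and *Zfp39*) and *Hgf* (*Myo1e*, *Myef2* and *Tecpr1*) r was 0.75 to 0.78.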

How the data were processed

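RNA of the pancreas head was depleted of ribosomal RNA and sequenced as paired reads in 23 mice. The authors trimmed the reads with Trim Galore and cutadapt, aligned them to mm10 with STAR (2.5.2a per the labels) and counted uniquely mapped fragments with featureCounts, and the deposited values are these raw counts per gene symbol. Mice were grouped by the time point in their labels, and mouse numbers are those of the labels. Between 14641 and 16653 symbols had a count in a mouse. The authors left out another day 14 female for poor mapping. Their mapping statistics gave every day 14 mouse a smaller share of reads in untranslated transcript starts than any mouse of the other groups. The part of this difference in the day 14 values was not tested. A floor of 3 counts is 0.224 to 0.522 CPM, and it covers counting error only.

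Counts were scaled with TMM (factors 0.77 to 1.40), filtered with filterByExpr and tested with edgeR 4.0.16 (R 4.3.3, glmQLFit with robust = TRUE, two-sided quasi-likelihood F test) with the 23 mice in 1 fit and sex as a covariate, adjusted with the Benjamini-Hochberg method over 12195 genes. The SE was computed from the fold change and its F value, and so restates the test. Log2 CPM used a prior count of 2. The p-values measure the spread between mice. Library measures were compared with exact permutation tests (9 tests adjusted together). Exon lengths came from GENCODE vM21, and Python 3.11.15 and scipy 1.17.1 were used.

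The 10 genes and the other lists were chosen with earlier results of these data known. All 10 genes are named, and from each other list the genes called at day 7 or day 14, at most 4 by smallest adjusted p at day 7, with *Pdgfrb*, *Met*, *Spint1*, *Itga8*, *Lrat* and *Gfap* added after their values were seen, as was *Acta2*. Alternatives were DESeq2 1.42.0 (also with a prior on fold changes), other scalings and filters, fits without sex or of only the mice compared, marker means as covariates, and leaving out each mouse. The adipocyte covariate and the fit without the 4 lymphocyte-rich mice were added after seeing the data. The test was tested on simulated data.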

Additional observations from a re-analysis of the deposited data

Results flagged for a closer look

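The highest and the lowest mouse of each group were compared with Dixon's 95% critical value for the 10 genes and 3 library measures at the 3 time points, 39 groups in all, of which chance alone would mark about 1 in 20. Both outliers were found in mouse 5 of the baseline group. Its *Postn* level was 4.32 log2 CPM, with the next baseline mouse at 3.04, a gap of 0.568 of the group's range. Its *Tnc* level was 3.42 log2 CPM, with the next baseline mouse at -0.04, a gap of 0.726 of the range. Without this mouse the day 7 log2 fold change of *Postn* was 2.17 instead of 1.72. The lymphocyte marker mean of mouse 5 was 3.30 and its adipocyte marker mean 3.19, and their part in these levels was not tested.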

How the results depend on the processing

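The 10 genes in 3 comparisons gave 30 log2 fold changes. In settings other than leaving out 1 mouse, 363 values kept their direction and call, 8 lost the call, 7 gained it and 17 changed sign.

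The count of the 10 genes called at day 7 was 7. It fell to 2 with the macrophage marker covariate and to 6 with the DESeq2 prior or without sex (*Pi16* lost). It rose to 9 with total count scaling (*Thy1* and *Fn1* gained). It was 5 in the fit of only the mice compared and 5 with at least 10 counts in every mouse, as *S100a4* and *Hgf* were not tested there. It was 6 without the 4 lymphocyte-rich mice, where *Hgf* was not tested. At day 14 it was 2 and became 1 with the DESeq2 prior and 3 with total count scaling (*Pi16* gained), and for day 14 against day 7 it was 0 and became 4 with total count scaling. Of all genes, 317 (day 7) and 52 (day 14) were called with the DESeq2 prior, and 3695, 448 and 473 (day 14 against day 7) with total count scaling, of which 99.4%, 98.2% and 2.96% were higher, against 74.4%, 88.5% and 54.3% with TMM. At least 10 counts in every mouse gave 348 (day 7) and 30 (day 14 against day 7), and no fold threshold gave 2264, 192 and 157. For day 14 against day 7 the lymphocyte, macrophage and adipocyte marker covariates gave 114, 120 and 71 genes. The sex difference in response at day 7 had 1 gene, 0 without a filter and 19 with DESeq2.

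Signs changed with the macrophage marker covariate for *Thy1* (-0.51), *Fn1* (-0.077) and *Tnc* (-1.62) at day 7, for *Thy1* (-0.20) and *Fn1* (-0.046) at day 14, and in day 14 against day 7 for *Thy1* (0.32), *Vim* (0.11), *S100a4* (0.027), *Pi16* (0.055), *Fn1* (0.030) and *Tnc* (2.20). *Tnc* in day 14 against day 7 was 0.052 with the lymphocyte and 0.025 with the adipocyte covariate. *Thy1* at day 14 was -0.0036 in the fit of only the mice compared, -0.0056 without sex, -0.069 with the lymphocyte covariate and -0.070 without the lymphocyte-rich mice. None of these values passed the threshold, and the cause was not tested.

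Leaving out 1 mouse gave 509 to 815 genes at day 7, 64 to 104 at day 14 and 22 to 57 in day 14 against day 7 (22 without mouse 22, 23 without mouse 15 and 29 without mouse 24). Of the 10 genes, 7 to 8 were called at day 7, 0 to 2 at day 14 and 0 in day 14 against day 7. Mouse 19 gave the 0 at day 14, and mouse 4 the 8 at day 7. The range was -0.068 to 0.23 for *Fn1*, -0.30 to 0.23 for *Thy1* and -0.78 to 0.43 for *Tnc* at day 14, and -0.19 to 0.053 for *Pi16* in day 14 against day 7. Without mouse 21 *Tnc* was -1.62 in day 14 against day 7, and without mouse 10 *Thy1* was 0.11 at day 7. No paired analysis was possible because no mouse number is shared between groups. Fewer than 10 counts lay behind most baseline values of *S100a4*, *Hgf* and *Tnc*, so their folds are imprecise.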
